A study of Rattus norvegicus with 19 samples.

Results

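The comparison described here set all ganglia from operated rats, with both survival times pooled, against ganglia from naive rats. Its members were chosen by their labels: the 14 arrays labelled PACS (primary afferent collateral sprouting), 7 taken on day 7 and 7 on day 14 after surgery, and the 5 naive arrays, which together are all 19 arrays of the series. Every array carried RNA of a single, unpooled T11 dorsal root ganglion from 1 adult female Sprague-Dawley rat, hybridised to the Affymetrix Rat Genome 230 2.0 array. In operated rats surgeons had transected, on 1 side, the cutaneous nerves (dorsal and lateral branches) of segments T9 and T10 above and T12 and T13 below, so that the T11 skin field was left as an island of innervated skin with its own nerves uncut. Naive rats had no operation and no sham surgery, so an effect of surgery as such and an effect of the denervated skin around the island cannot be told apart. All p-values measure the spread between individual rats.

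Each dorsal root ganglion contains sensory neurons serving 1 spinal segment, surrounded by satellite glia, Schwann cells, macrophages and vessels. When skin next to an intact sensory field loses its nerve supply, intact pain-sensing axons at the border can grow side branches into it, a process that depends on nerve growth factor from the skin. This growth from uncut axons is distinct from regeneration, in which a neuron whose own axon is cut switches on an injury programme that includes the transcription factors Atf3, Jun and Sox11, the growth-associated proteins Sprr1a and Gap43, and the peptides Npy, Vip and Gal.

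The table held 31042 probe sets after control probes were removed, and 20826 of them carried 1 gene symbol. Correlations between arrays lay between 0.987 and 0.997. Of 8 neuronal markers 6 averaged 12.31 log2 units or more in each arm, against an array median of 6.72, and the transcription factor genes Pou4f1 and Isl1 averaged 8.17 and 8.72 in operated ganglia. Prph, an intermediate filament of peripheral neurons, read 13.30 ± 0.07 in operated and 13.26 ± 0.05 log2 units in naive ganglia (SD, n = 14 and 5). The central glial markers Mog, Mobp and Opalin stayed at or below 4.91 log2 units on average. The skeletal muscle list stood out on naive replicate 1 (a mean of 8.46), day 7 replicate 7 (8.09) and day 14 replicate 2 (7.21), while the median array of each arm lay at 6.19. The signal near the 3′ end minus that near the 5′ end of control transcripts, a measure of RNA length after amplification, was 3.27 ± 0.07 in operated ganglia and 3.42 ± 0.18 in naive ganglia (exact permutation test over 11628 splits, two-sided p = 0.0181, 0.0362 adjusted over 2 array measures). Without naive replicate 3 or naive replicate 4 the difference was -0.12 and -0.08, with exact permutation p of 0.0693 and 0.105.

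Pooling the days gave few transcripts that passed the test, all of modest size. Of 31042 probe sets, 6 (0.0193%) had a Benjamini-Hochberg adjusted p under 0.05 in limma for the mean of both days minus naive, 2 higher (0.00644%) and 4 lower (0.0129%) in operated ganglia. They were Copz1 and an unnamed probe set among those that rose, and Ccdc127, Rpl37-ps2 and 2 unnamed probe sets among those that fell. At an adjusted p under 0.10 the count was 47 (0.151%), 17 higher (0.0548%) and 30 lower (0.0966%), with log2 differences of 0.26 to 0.81 in size. Without adjustment 4549 probe sets (14.7%) had a p under 0.05, 6.98% of all on the higher side and 7.67% on the lower.

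Copz1 encodes the zeta subunit of the COPI coat, which carries vesicles back through the Golgi to the endoplasmic reticulum. Its probe set 1394565_at read 6.99 in the lowest, 7.23 in the median and 7.35 log2 units in the highest operated array, against 6.77, 6.87, 6.86, 6.76 and 6.91 in the 5 naive arrays. All 14 operated values lay above all naive values, and the difference of 0.36 ± 0.05 (SE) passed the test (limma, adjusted p = 0.0172). The brighter probe set of the same gene, 1375520_at, averaged 11.51 ± 0.12 in operated and 11.46 ± 0.08 log2 units in naive ganglia and differed by 0.05 ± 0.06, so the change was seen by 1 of 2 probe sets.

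Ccdc127, a gene for a coiled-coil protein, had the largest called change. Operated arrays read 7.99, 8.45 and 8.83 (lowest, median, highest) at 1385102_at, against 9.22, 9.26, 9.28, 8.91 and 9.47 log2 units in naive arrays. The groups did not overlap, and the signal fell by 0.79 ± 0.12 on the log2 scale, to 0.577 of the naive level (limma, adjusted p = 0.0179). The gene's other probe sets differed by -0.61 ± 0.16 and -0.31 ± 0.09, with 13 and 10 of the 14 operated arrays below every naive array, though neither passed the test.

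Rpl37-ps2 is annotated as a pseudogene copy of the ribosomal protein gene Rpl37, and its signal may come in part from near-identical copies. It read 6.59, 6.78 and 7.04 in the lowest, median and highest operated arrays, against 7.25, 7.21, 7.07, 7.28 and 7.27 log2 units in naive arrays. It fell by 0.43 ± 0.07 (limma, adjusted p = 0.0179), again with no overlap. The list of cytoplasmic ribosomal proteins, with 40 genes measured, had a median difference of 0.01.

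The smallest p of the array belonged to the unnamed probe set 1385926_at. It read 7.36, 7.66 and 7.82 log2 units in the lowest, median and highest operated arrays, against 6.94, 7.15, 7.32, 7.04 and 7.00 in naive arrays, a rise of 0.53 ± 0.07 with no overlap (limma, adjusted p = 0.00624). Among unnamed probe sets that fell, 1374130_at differed by -0.32 ± 0.04 (adjusted p = 0.0106, all 14 operated arrays below naive) and 1384301_at by -0.44 ± 0.07 (adjusted p = 0.0242, 12 of 14 below).

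**Figure D1:**
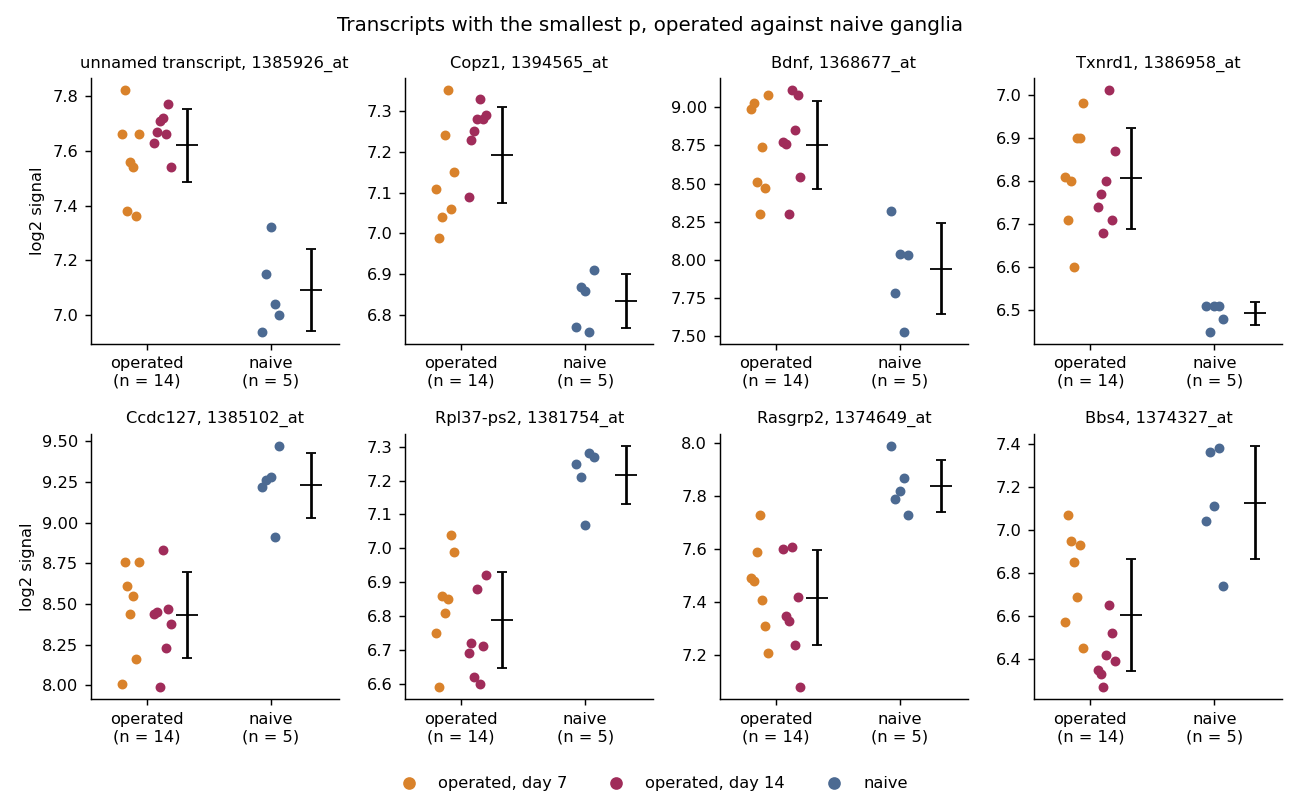
Log2 signal on each array for 8 probe sets with small p-values, 4 higher (upper row) and 4 lower (lower row) in operated ganglia; points are arrays, coloured by day, and bars are mean ± SD of each arm. In Copz1, Txnrd1, Ccdc127, Rpl37-ps2 and Rasgrp2 the 14 operated arrays lie wholly to 1 side of the 5 naive arrays, while Bdnf and Bbs4 overlap.

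Separation without any model was counted on the same arrays, so it is not separate evidence. In 37 probe sets (0.119%) all 14 operated arrays lay on 1 side of all 5 naive arrays, 18 higher (0.058%) and 19 lower (0.0612%), and these included 5 of the 6 called and 18 of the 47 with an adjusted p under 0.10. Large differences were not the ones that passed: 23 probe sets differed by more than 1 log2 unit (10 higher, 13 lower), 19 of them had an unadjusted p under 0.05, and none had an adjusted p under 0.05.

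Most of the called changes did not differ between days at an unadjusted p under 0.05, which does not show that they were of equal size. A called probe set was counted as common when each day lay on the same side of naive with an unadjusted p under 0.05 and day 14 did not differ from day 7 at that level. By this count 4 of the 6 called probe sets were common, and 35 of the 47 with an adjusted p under 0.10. The probe sets had been chosen on the mean of both days, so only the condition on the difference between days left any out. It left out 2 of the 6 and 12 of the 47, while 11.3% of all probe sets had such a difference. Ccdc127 differed from naive by -0.76 ± 0.14 on day 7 and -0.83 ± 0.14 on day 14, and Rpl37-ps2 by -0.37 ± 0.07 and -0.48 ± 0.07; both days share the naive arrays. Copz1 was not counted, since its differences of 0.30 ± 0.06 on day 7 and 0.42 ± 0.06 on day 14 gave an unadjusted p of 0.0471 between days. Nor was 1384301_at, which was lower on day 14 than on day 7 by 0.25 ± 0.07 (day 14 minus day 7 of -0.25, unadjusted p = 0.00275). None of the 6 differed between days after adjustment over all probe sets, and the array as a whole had 0 probe sets with an adjusted p under 0.05 for day 14 minus day 7 in limma (smallest 0.133), with 3516 (11.3%) at an unadjusted p under 0.05. Pooling narrowed the standard error only a little, with a median of 0.0713 for the pooled difference, against 0.0801 for each day alone. In the same limma fit day 7 alone had 0 called probe sets (2700, or 8.7%, at an unadjusted p under 0.05) and day 14 alone had 43 (0.139%).

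Next in rank stood the neurotrophin gene Bdnf, whose product binds the receptor encoded by Ntrk2. Operated arrays read 8.30, 8.77 and 9.11 log2 units (lowest, median, highest) at 1368677_at, against 8.32, 7.78, 8.04, 7.53 and 8.03 in naive arrays. Of 14 operated arrays 12 lay above every naive array, and the difference of 0.81 ± 0.14 just missed the threshold (limma, adjusted p = 0.0536). Its differences were 0.79 ± 0.16 on day 7 and 0.83 ± 0.16 on day 14. A dimmer probe set differed by 0.29 ± 0.07.

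At its receptors the differences lay near 0. Ntrk2 differed by -0.02 ± 0.09 and Ngfr, the shared neurotrophin receptor, by 0.04 ± 0.07, with adjusted p of 0.934 and 0.818 in limma. Gfra1, a receptor for glial cell line-derived neurotrophic factor, differed by 0.22 ± 0.07 with 12 of 14 operated arrays above naive (adjusted p = 0.19). Over the 15 measured genes of the neurotrophin and GDNF family list, 7 were higher and 8 lower in operated ganglia, and the median was -0.02.

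Other transcripts just outside the threshold were also tight and small. Txnrd1, the cytosolic thioredoxin reductase, read 6.60, 6.80 and 7.01 in the lowest, median and highest operated arrays, against 6.51, 6.45, 6.51, 6.51 and 6.48 log2 units in naive arrays at 1386958_at. Its 2 probe sets differed by 0.32 ± 0.06 and 0.30 ± 0.06 (limma, adjusted p = 0.0711 and 0.0792). Samhd1, a triphosphohydrolase of deoxynucleotides, differed by 0.29 ± 0.06, and all 14 operated arrays lay above naive for it. Nppa, the precursor of atrial natriuretic peptide, differed by 0.37 ± 0.07 (12 of 14 above naive).

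In the same band of adjusted p between 0.05 and 0.10 were genes of several kinds. Gabra5, an alpha subunit of the GABA-A receptor, differed by 0.69 ± 0.14 with all 14 operated arrays above naive. Kcnk10, a background potassium channel, differed by 0.34 ± 0.07 (13 of 14 above) and Slc41a2, a magnesium transporter, by 0.27 ± 0.06 (11 of 14 above), though Slc41a2's brighter probe set differed by 0.05 ± 0.06. Kif16b, a kinesin that moves endosomes, differed by 0.32 ± 0.06 at 1 of its 5 probe sets, while the others lay between -0.06 and 0.07. The kinase gene Tnik differed by 0.69 ± 0.14 (14 of 14 above) at 1383805_at and by 0.28 ± 0.12 at its brightest probe set.

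Among transcripts lower in operated ganglia in this band, Rasgrp2, an activator of the small GTPase Rap, read 7.08, 7.42 and 7.73 (lowest, median, highest) in operated arrays, against 7.99, 7.79, 7.82, 7.87 and 7.73 log2 units in naive arrays, a difference of -0.42 ± 0.08. Mmp24, a membrane-bound metalloproteinase, differed by -0.32 ± 0.06. All 14 operated arrays were below naive for both. Genes of chromatin and transcription included Cbx7, a Polycomb protein (-0.34 ± 0.07), Kmt2e (-0.33 ± 0.07) and the elongation factor Ell (-0.31 ± 0.06, 14 of 14 below). Gtpbp2, which acts on stalled ribosomes, differed by -0.37 ± 0.07 with all 14 operated arrays below naive, and the Janus kinase gene Tyk2 by -0.30 ± 0.06.

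**Figure D2:**
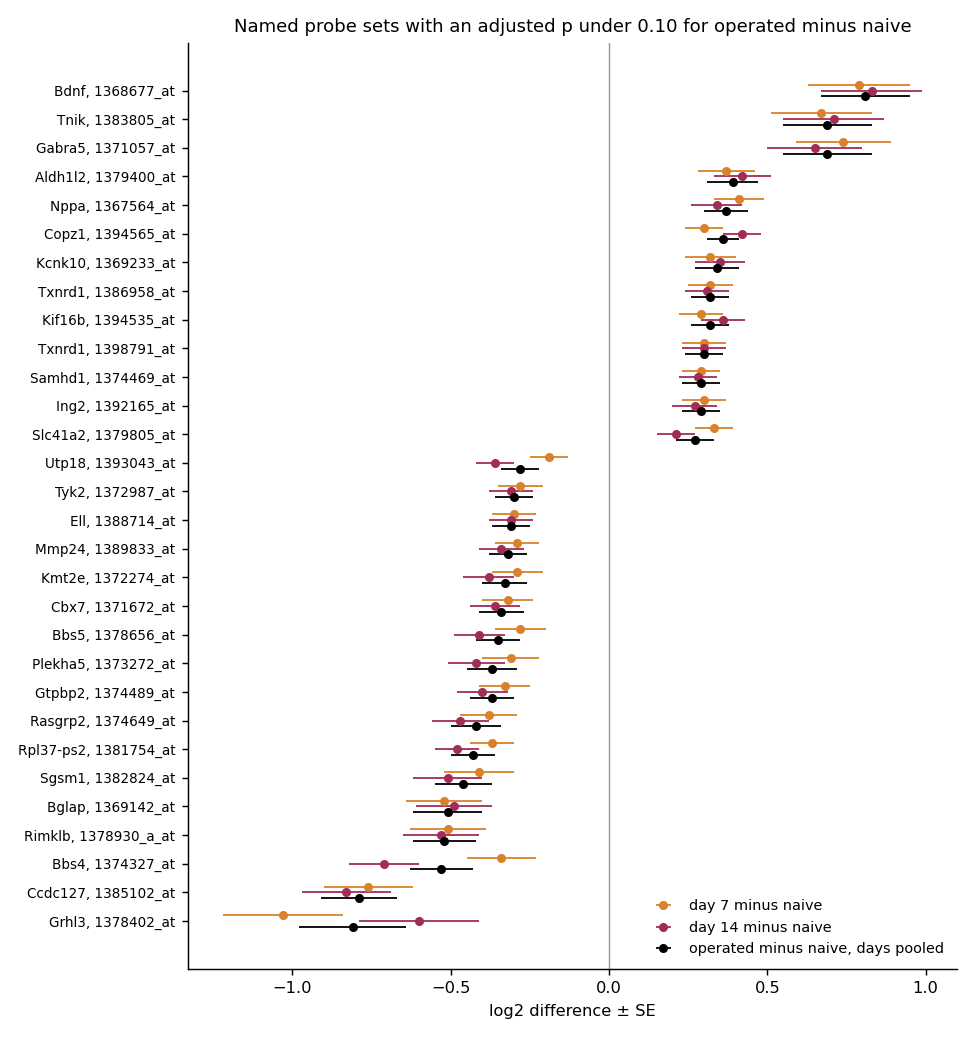
Log2 difference from naive with its standard error for the 30 probe sets of named genes with an adjusted p under 0.10, on day 7, on day 14 and with days pooled; all 3 use the same 5 naive arrays. Day 7 and day 14 points lie on the same side of 0 for every probe set shown, with the widest gaps between days at Bbs4 and Grhl3.

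The genes of the axon injury programme gave the 3 largest differences of the comparison (Npy, Vip and Csrp3) and varied widely between operated rats. Of 36 measured genes of the nerve injury list, 32 were higher in operated ganglia and 17 (47.2%) were higher with an unadjusted p under 0.05, against 910 of 14217 genes (6.4%) on the whole array, each gene read at its brightest probe set. The median difference was 0.24 over the list and 0.00 over all genes. No member passed the adjusted test, and the list was drawn up with earlier results of these data known, so its count is not independent evidence of a direction.

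Npy, a peptide made by injured large sensory neurons, had the largest difference. Operated arrays read 6.88, 9.99 and 12.38 log2 units (lowest, median, highest), against 7.32, 6.91, 7.66, 6.79 and 6.48 in naive arrays. The difference was 2.74 ± 0.69, a 6.66-fold ratio, with 11 of 14 operated arrays above every naive array (limma, adjusted p = 0.136).

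The peptide gene Vip read 4.77, 7.96 and 10.88 (lowest, median, highest) in operated arrays, against 4.94, 5.08, 5.66, 5.30 and 5.12 in naive arrays, a difference of 2.46 ± 0.77 (adjusted p = 0.184). Gal, the galanin precursor, differed by 1.22 ± 0.36, and 10 of 14 operated arrays lay above naive. Shifts were smaller at Calcb (0.22 ± 0.06) and at Tac1, the substance P precursor (0.28 ± 0.15). The brightest probe set of Calca differed by 0.04 ± 0.04, while Calca's second probe set, 1369116_a_at, differed by 0.42 ± 0.11. Over the 24 measured neuropeptide and granin genes 17 were higher and 7 lower. Their median was 0.08 and the lowest difference -0.50. At an unadjusted p under 0.05, 6 (25%) were higher and 3 (12.5%) lower, against 6.4% and 9.37% of all genes.

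Among transcription and stress factors, Atf3 read 7.28, 9.68 and 11.63 (lowest, median, highest) in operated arrays, against 8.10, 8.17, 7.94, 8.44 and 8.17 in naive arrays. It lay above all naive arrays in 9 operated rats and below all of them in 2, and the difference was 1.25 ± 0.54 (limma, adjusted p = 0.3). Jun differed by 0.35 to 0.51 over its 3 probe sets and Stat3 by 0.33 ± 0.12. Gadd45a, a DNA damage response gene, differed by 0.85 ± 0.21 with 12 of 14 operated arrays above naive. Sox11, also of this programme, differed by 0.13 ± 0.08 at a dim probe set. That probe set averaged 4.88 log2 units over all arrays, against an array median of 6.72.

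Genes of the growing axon and its surroundings were mixed. Sprr1a differed by 1.20 ± 0.44 and Csrp3, a LIM domain protein, by 2.38 ± 0.75, with 11 and 10 of 14 operated arrays above naive. Gap43 stood at 12.79 ± 0.10 in operated and 12.73 ± 0.05 log2 units in naive ganglia, a difference of 0.06 ± 0.05. Over the growth cone and axon cytoskeleton list, 20 of 36 genes were higher and the median was 0.01. Cacna2d1, the calcium channel subunit to which gabapentin binds, differed by 0.64 ± 0.15 with like values on both days, at 0.63 ± 0.17 and 0.65 ± 0.17.

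Timp1, a secreted inhibitor of metalloproteinases, was the one member of the injury list in which all 14 operated arrays lay above naive. It read 10.52, 10.86 and 11.44 log2 units in the lowest, median and highest operated arrays, and the naive arrays lay between 10.29 and 10.49. The difference was 0.52 ± 0.13 (limma, adjusted p = 0.136), with 0.42 on day 7 and 0.62 on day 14.

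**Figure D3:**
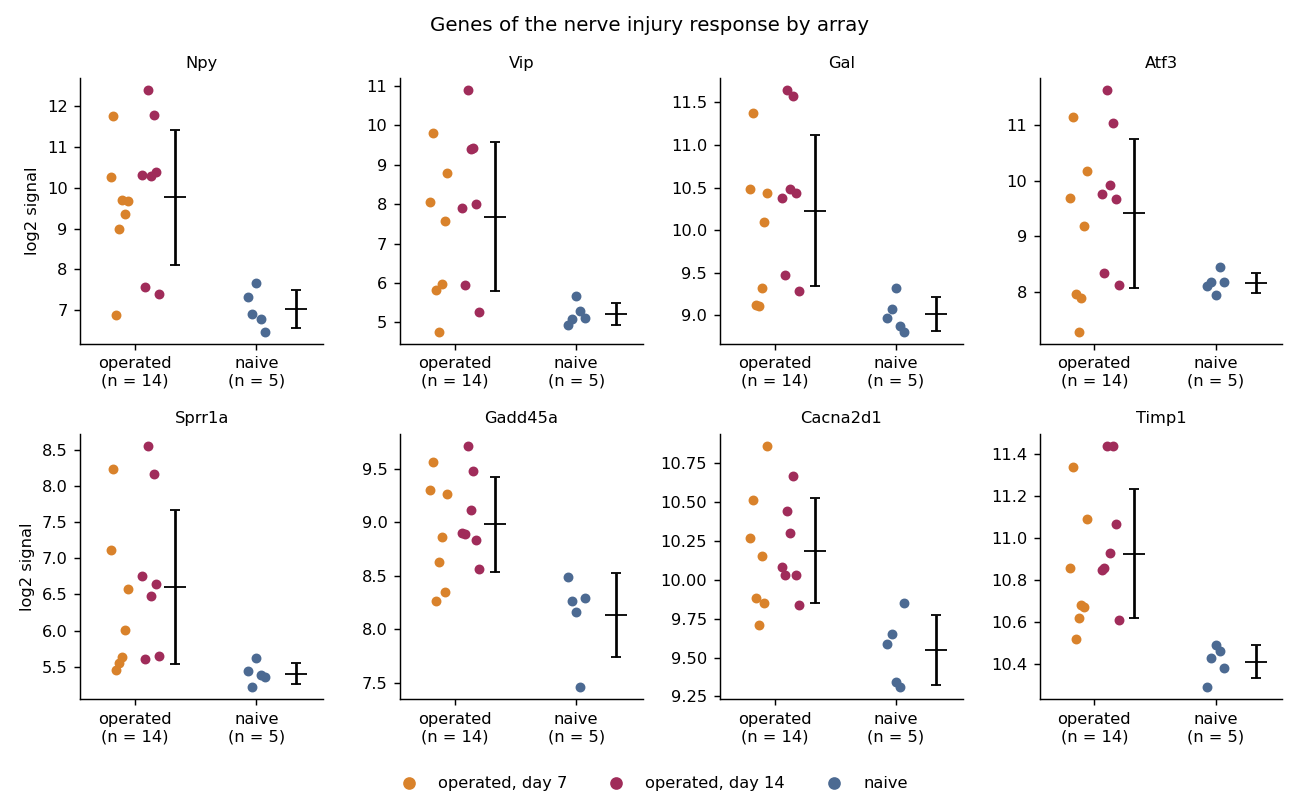
Log2 signal of 8 genes of the nerve injury list on each array, coloured by day, with mean ± SD of each arm. For Vip the operated arrays run between 4.77 and 10.88 while the naive arrays stay between 4.94 and 5.66, and Timp1 alone of the 8 has every operated array above every naive one.

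The rats differed in how many of these genes stood high. The mean over the 36 genes lay between 7.73 and 8.94 in operated arrays, with a median of 8.29 and an SD of 0.39, and between 7.72 and 7.83 in naive arrays, with an SD of 0.04. Of 14 operated arrays 11 lay above the highest naive mean, 5 of 7 on day 7 and 6 of 7 on day 14. The number of the 36 genes above all naive arrays was 3 in the lowest, 19.5 in the median and 27 in the highest operated array. The lowest was day 7 replicate 4. Some genes lie above 5 naive arrays by chance, and the same count over all genes is not given here. The numbers therefore do not show how many genes were raised in a rat. In whole ganglia, fewer neurons with a high level and a lower level per neuron cannot be told apart.

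Promoters of 25 of the 36 injury genes were found in RefSeq, with 27 start sites, and short motifs for factors of this programme were searched in the 250 bases before each start. The short site TGACG, read on either strand as TGACG or CGTCA and bound by cyclic AMP response factors, was in 10 of the 27 (37%), against 18.2% of all 33469 promoters. The motif TGANTCA, read by Jun and Fos proteins and the same on both strands, was in 2 of 27 (7.41%), against 6.34% of all. The windows below, printed 5′ to 3′ on the strand of the gene, are those of injury genes described above with a match, which is in capitals; the Sprr1a window holds TGANTCA 2 times and the others TGACG 1 time. A match is a string of letters and was not tested as a site.
Sprr1a: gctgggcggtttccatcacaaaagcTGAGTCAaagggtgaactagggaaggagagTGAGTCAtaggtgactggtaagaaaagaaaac
Vip: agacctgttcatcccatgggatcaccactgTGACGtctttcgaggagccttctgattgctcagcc
Gal: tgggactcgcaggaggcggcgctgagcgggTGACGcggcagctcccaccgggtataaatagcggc
Timp1: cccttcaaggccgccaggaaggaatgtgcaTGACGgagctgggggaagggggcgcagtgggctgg
Gadd45a: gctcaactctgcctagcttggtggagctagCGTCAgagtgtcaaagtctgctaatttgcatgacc
Cacna2d1: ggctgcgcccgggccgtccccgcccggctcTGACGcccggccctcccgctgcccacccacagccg

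In the RefSeq build GRCr8 the Sprr1a window lies at chr2:180752711-180752797 on the minus strand, its matches beginning 147 and 117 bases before the start. The Vip window lies at chr1:44470353-44470417 (plus strand) with the match 97 bases before the start, and the Gal window at chr1:210084601-210084665 (minus strand) with the match 63 bases before it. Those of Timp1, Gadd45a and Cacna2d1 lie at chrX:3771303-3771367, chr4:97486893-97486957 and chr4:20330290-20330354, all on the minus strand. All lie upstream of the gene, outside its transcript.

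Cilium genes leaned to the lower side. Most cells carry 1 primary cilium, built by intraflagellar transport and supplied with membrane proteins by the BBSome, a complex of Bardet-Biedl syndrome proteins. Of 53 measured genes of the cilium list 38 were lower in operated ganglia, 16 (30.2%) with an unadjusted p under 0.05 and none higher at that level, against 9.37% of all genes lower. The median was -0.08 (-0.05 on day 7 and -0.12 on day 14). No member passed the adjusted test, and the list was drawn up with earlier results known.

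Bbs5, a BBSome subunit, read 6.17, 6.53 and 6.74 in the lowest, median and highest operated arrays, against 7.04, 6.80, 6.71, 6.76 and 6.99 log2 units in naive arrays. Of 14 operated arrays 13 were below naive, and the difference was -0.35 ± 0.07 (limma, adjusted p = 0.0792). Bbs4 split by probe set: 1374327_at differed by -0.53 ± 0.10 (adjusted p = 0.0789, 10 of 14 below naive) and 1383007_at by 0.04 ± 0.11. At the first of these day 14 lay lower than day 7 by 0.37 ± 0.10 (day 14 minus day 7 of -0.37, unadjusted p = 0.00183).

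Further BBSome, transition zone and transport members were also lower. Bbs1 differed by -0.45 ± 0.14 at its brighter probe set and by -0.03 ± 0.05 at a dim one, 1386732_at. The transition zone genes Cc2d2a and Tmem67 differed by -0.38 ± 0.15 and -0.24 ± 0.09. Among intraflagellar transport genes, Ift70a1 differed by -0.27 ± 0.07, Ift88 by -0.19 ± 0.07 and Ift81 by -0.19 ± 0.09, and 11 of 14 operated arrays were below naive for Ift70a1 and Ift81. Kifap3, the adaptor of the kinesin that drives this transport, differed by -0.37 ± 0.08 at 1374462_at, by -0.14 ± 0.05 at its brightest probe set and by 0.13 ± 0.15 at the third.

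Genes of the Schwann cell sheath lay lower. All 17 measured genes of the myelinating Schwann cell list were lower in operated ganglia, 4 of them (23.5%, against 9.37% of all genes) with an unadjusted p under 0.05: Mag, Bcas1, Sox10 and Fa2h. The median was -0.11 with days pooled, -0.26 on day 7 and 0.02 on day 14, and the difference between days was not tested for the list. Mag, a glycoprotein of the myelin sheath, read 6.04, 6.46 and 6.90 in the lowest, median and highest operated arrays, against 6.49, 6.97, 7.02, 7.44 and 6.67 log2 units in naive arrays, a difference of -0.43 ± 0.13 (limma, adjusted p = 0.184). Naive replicate 4, highest for Mag, also had the highest 3′ minus 5′ signal at 3.69, and with that signal as a covariate the Mag difference was -0.19. The abundant Pmp22 stood at 13.72 ± 0.08 in operated and 13.73 ± 0.05 in naive ganglia. Neuron markers had a median difference of -0.01 over 14 genes.

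Chemokine and antigen presentation genes leaned upward without passing the test. Of 39 measured chemokine, cytokine and complement genes 30 were higher, 8 (20.5%) with an unadjusted p under 0.05, against 6.4% of all genes, and the median was 0.09. Ccl2, a chemokine that draws monocytes, read 8.92, 9.72 and 10.25 (lowest, median, highest) in operated arrays, against 9.03, 8.76, 9.13, 8.70 and 9.27 log2 units in naive arrays, a difference of 0.64 ± 0.17 (limma, adjusted p = 0.151). The interferon response list had 10 genes higher and 16 lower of 26, with a median of -0.02. Of 21 MHC and antigen presentation genes 18 were higher with a median of 0.16. Cd74, the invariant chain of MHC class II, differed by 0.15 ± 0.27 on day 7 and 0.83 ± 0.27 on day 14. The macrophage list had a median of 0.09, and its defining members Aif1, Cd68 and Csf1r differed by 0.04, 0.00 and 0.03.

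Smaller groups showed both directions. Of 48 splicing and polyadenylation genes 33 were lower, among them the splicing kinases Clk1 (-0.42 ± 0.19) and Clk4 (-0.29 ± 0.09), and 5 (10.4%) were lower and 3 (6.25%) higher with an unadjusted p under 0.05, close to the 9.37% and 6.4% of all genes. Of 42 proteasome and unfolded protein response genes 30 were higher, among them the proteasome subunits Psmb7 (0.31 ± 0.08) and Psmc4 (0.22 ± 0.07). At an unadjusted p under 0.05, 6 (14.3%) were higher and 1 (2.38%) lower, against 6.4% and 9.37% of all genes. The list median was 0.04, and -0.01 with the 3′ minus 5′ signal as a covariate. Immediate early genes were split, with Fosb at -0.44 ± 0.19 and Nr4a1 at -0.39 ± 0.12 against Jun and Myc on the higher side. Of 35 potassium channel genes 22 were lower, with a median of -0.02. Of these genes 4 (11.4%) were lower and 1 (2.86%) higher with an unadjusted p under 0.05, against 9.37% and 6.4% of all genes. Kcnd3, of the fast-inactivating A-type channels, had the lowest difference of the list at -0.33 ± 0.13. The circadian genes Per2 and Per3 differed by -0.48 ± 0.21 and -0.46 ± 0.20; the time of day of tissue collection was not given in the sources used here.

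**Figure D4:**
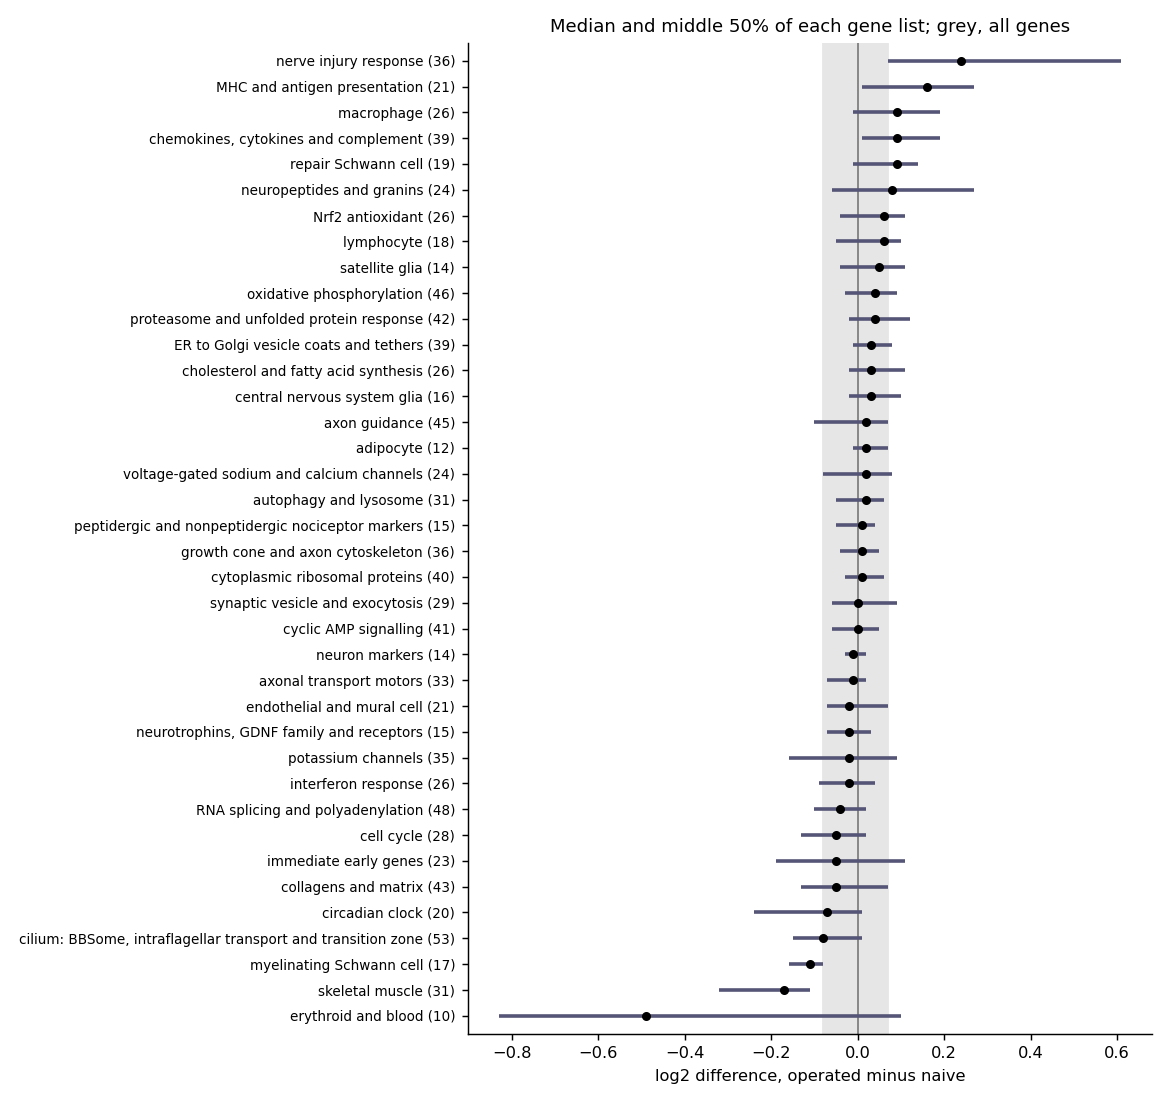
Median (point) and middle 50% (bar) of the log2 difference, operated minus naive, over the measured genes of each of 38 lists, with gene numbers in brackets; the grey band and line are the middle 50% and median of all 14217 genes. The injury list lies highest at 0.24, and the blood list (-0.49), the muscle list (-0.17), the myelinating Schwann cell list (-0.11) and the cilium list (-0.08) lie lowest.

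Markers of blood and muscle varied between arrays in both arms. The blood list of 10 genes had a median of -0.49, led by S100a8, a granulocyte protein, at -1.30 ± 0.47 (operated arrays from 5.47 to 7.33, naive arrays from 5.66 to 10.01). The list's mean level ranged from 6.63 to 8.20 log2 units in operated arrays (median 7.29) and from 6.69 to 8.90 in naive arrays (median 7.84). Its median difference was -0.32 without naive replicate 1, and with all arrays 4 of the 10 blood genes were higher and 6 lower in operated ganglia. The muscle list of 31 genes ranged from 6.03 to 8.09 in operated and from 6.08 to 8.46 in naive arrays. Of these genes 26 were lower, with a median of -0.17, which was 0.26 without naive replicate 1. The mean of the list differed by -0.18 between arms (exact permutation test, two-sided p = 0.708). The part of blood and muscle in the results above was not tested beyond leaving out arrays and the muscle covariate, given in the 2 paragraphs that follow.

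The count of called transcripts depended on which rats were included. It was 6 with all arrays and lay between 3 and 115 when each array was left out in turn. Without naive replicate 1, the array highest in muscle genes, 115 probe sets passed (18 higher, 97 lower), and these included all 6 called before. In that fit Bdnf (0.91 ± 0.15, limma, adjusted p = 0.0359), Txnrd1, Samhd1, Nppa and Gabra5 rose and Bbs4, Sgsm1, Tyk2, Cbx7 and Gtpbp2 fell. Further genes that passed in that fit included Dgkz (-0.73 ± 0.13), Tob2 (-0.55 ± 0.08) and Srrm2 (-0.86 ± 0.18), named after their values were seen. Without naive replicate 3 or naive replicate 5 the counts were 3 and 4, and without naive replicate 2 the count was 17.

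Some fits that took account of other array differences called none of the 6 and others called all of them. A covariate for muscle signal let 27 probe sets pass in limma, and with array weights 9, the 6 among them each time. Without the muscle-highest array of each group 0 passed (smallest 0.0506; 603 under 0.10; 5748 at an unadjusted p under 0.05). With the 3′ minus 5′ signal as a covariate 0 probe sets had an adjusted p under 0.05 in limma (smallest 0.0889; 2100 at an unadjusted p under 0.05), while Ccdc127 differed by -0.80 and Copz1 by 0.32 in that fit. Of the 47 probe sets under 0.10 this covariate made 2 smaller by over 1.5 times, Gtpbp2 at -0.22 and Sgsm1 at -0.26. Outside that band it moved more: Gadd45a then differed by 0.55, Mag by -0.19, Bbs1 by -0.24, Tac1 by 0.08, Fosb by -0.05, Psmc4 by 0.07 and Tmem67 by -0.13. The list medians were 0.27 for nerve injury, -0.08 for cilium and -0.11 for myelinating Schwann cells in that fit. With the first letters of the rat's code (AI, AJ or AK, whose meaning the labels do not give) as a block, 0 passed (smallest 0.164; 2029 unadjusted), and Ccdc127 again differed by -0.80. None of the 47 moved by over 1.5 times under this block, but injury genes did, with Atf3 at 2.18, Vip at 3.94, Csrp3 at 3.62 and the list median at 0.39, and Tac1 (0.16), Cc2d2a (-0.06), Ift81 (-0.07), Clk1 (-0.21) and Fosb (-0.26) were nearer 0. Code AI held day 14 rats only. Within code AJ (7 operated, 2 naive) the differences were -0.80 for Ccdc127 and 0.38 for Copz1, and within code AK (2 operated, 3 naive) they were -0.75 and 0.18. All 6 called probe sets kept their direction within both codes, and so did the 47, which had been chosen with these arrays.

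How far single rats lay from their own group mean was also compared between arms, gene by gene. In limma on absolute deviations 236 probe sets (0.76%) were called, 2 (0.00644%) more variable in operated and 234 (0.754%) in naive rats. The 2 directions cannot be compared, since this test hardly finds a larger spread in the operated arm. On simulated data with a 4-fold larger spread it found 1 of 600 probe sets in the operated arm and 171 of 600 in the naive arm. No named gene passed with a larger spread in operated rats; the smallest adjusted p there belonged to Traf6, a signalling ligase, at 0.0646, and Mx2, an interferon-induced GTPase, at 0.0723, while Atf3 had 0.245. With deviations taken from the group median 0 were called. On a log2 scale of the deviations, added after the data were seen, the count was 128 (0.412%), 33 (0.106%) with a larger spread in operated rats and 95 (0.306%) with a larger spread in naive rats. On simulated data both scales made more false calls than their threshold allows, so the single genes below are a description and their adjusted p-values are too small.

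Of 22 named genes called as more variable in operated rats on the log2 scale, 4 were among the 36 of the injury list, which are Atf3, Sprr1a, Vip and Reg3b. Atf3 had an SD of 1.35 over operated and 0.18 over naive arrays (limma on log2 deviations, adjusted p = 0.00111), Sprr1a 1.07 and 0.14 (adjusted p = 0.00146) and Vip 1.88 and 0.28 (adjusted p = 0.00624). Others were Crisp3, a secreted cysteine-rich protein (1.71 and 0.18), the cytokine gene Tslp (0.99 and 0.15), the B cell chemokine Cxcl13 (0.62 and 0.05) and Stmn4, a stathmin that binds tubulin (0.51 and 0.06). Their mean levels did not pass the test of means. The deviations were taken within each day, so a shift between days did not enter.

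Of 39 named genes called as more variable in naive rats on that scale, the first were Ddx42, an RNA helicase, with an SD of 0.27 over operated and 1.17 over naive arrays, and Trdmt1 (0.19 and 0.65). Ddx42 also passed on untransformed deviations (adjusted p = 0.000876). The mast cell proteases Mcpt9 (0.35 and 1.10) and Mcpt10 (0.21 and 0.82), and Hemgn and Myb of blood-forming cells, were also among them. Naive means of most of these genes lay above the operated means; Mcpt9 averaged 4.59 in operated and 5.47 log2 units in naive ganglia.

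**Figure D5:**
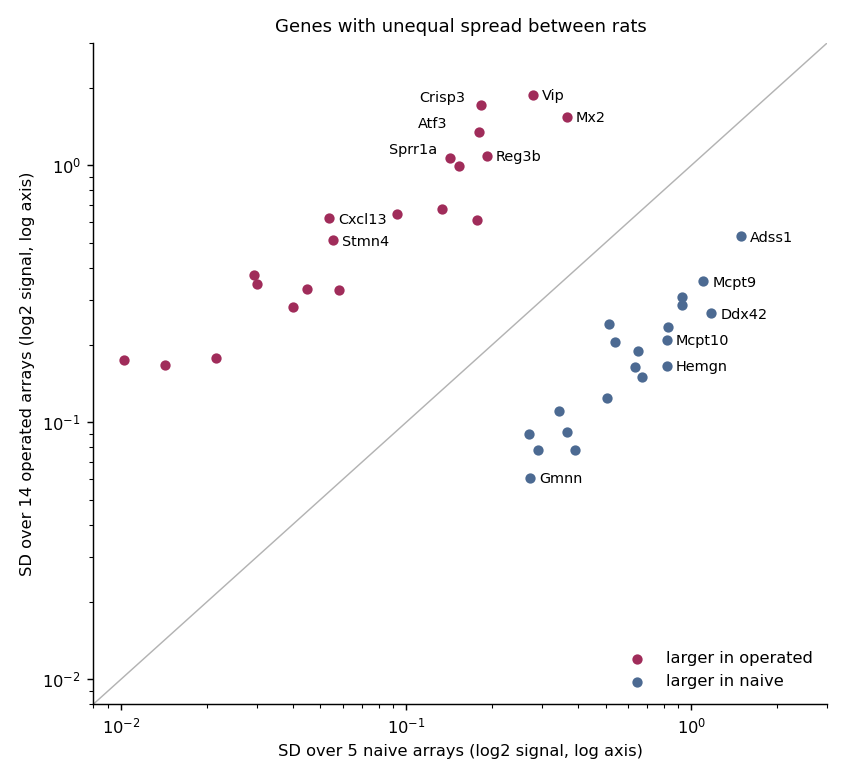
SD of log2 signal over the 14 operated arrays (vertical) against the 5 naive arrays (horizontal), both on log axes, for the 20 named genes with the smallest p in each direction of the spread test on log2 deviations; the line marks equal SD. Atf3, Sprr1a, Vip and Crisp3 lie far above the line, and Ddx42, Mcpt9 and Adss1 far below it. Adss1 lies there through naive replicate 1, at 8.41 against 4.94 to 5.21 on the other naive arrays.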

How the data were processed

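Per the labels' protocols, RNA of single ganglia was amplified in 2 rounds before hybridisation, and amplification can stretch or compress differences. The deposited table holds log2 signal per probe set for 31099 probe sets; RMA and limma are named in the submitters' processing notes, without versions. The submitters hybridised 20 arrays and removed 1 naive array. Values ran from 3.48 to 14.02 and array medians from 6.702 to 6.745.

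From these values 57 control probe sets were dropped and 31042 were fitted in limma 3.58.1 (R 4.3.3) with 1 mean for each of the 3 groups. The main contrast was the mean of both days minus naive, with Benjamini-Hochberg adjustment over all probe sets and a threshold of 0.05. The code was tested on simulated data, where the test of means kept near or under its threshold of false calls and the spread tests did not. Symbols came from the platform annotation, updated through RefSeq tables: 20826 probe sets had 1 symbol, 436 several and 9780 none. Lists used the probe set with the highest mean. Named genes were the 5 rises and 5 falls with the smallest p (the threshold was met by fewer), a fixed set, and the 10 smallest p of the spread test in each direction; other list members were picked after their values were seen. Some genes of the fixed set are not reported here. Members and lists were chosen with earlier results of these data known. Depth does not apply to arrays; the number of arrays limits the precision. Alternatives covered normalization, moderation, weights, blocks, covariates and each array left out.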

Additional observations from a re-analysis of the deposited data

Results flagged for a closer look

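In groups of 4 to 10 arrays, the highest or lowest array was set against its nearest neighbour by Dixon's test, and 8 of 111 sets of values stood apart, where chance gives about 5.5. Copz1 (1394565_at) was lowest on day 14 replicate 1 at 7.09, against 7.23 on the next array, still above every naive array. Jun (1369788_s_at) was highest on day 7 replicate 2 at 11.31 (next 10.89) and on naive replicate 2 at 10.94 (next 10.50). Bbs5 was lowest on day 14 replicate 5 at 6.17 (next 6.39), and Ntrk2 (1397246_at) on day 14 replicate 3 at 10.88 (next 11.15). The skeletal muscle list mean was highest on day 7 replicate 7 at 8.09 (next 6.64), on day 14 replicate 2 at 7.21 (next 6.21) and on naive replicate 1 at 8.46 (next 6.24). Each arm thus held at least 1 array with high muscle signal.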

How the results depend on the processing

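The 6 called probe sets became 11 without dim probe sets, 10 with quantile normalization repeated, 27 with the muscle mean as covariate, 2 with 1 probe set per gene and 47 at an adjusted p of 0.10. In limma the count was 0 with the 3′ minus 5′ covariate, with the rat code as a block, without the muscle-highest array of each group (603 under 0.10, 5748 unadjusted under 0.05) and with the replicate number as a block (3581 unadjusted under 0.05). Replicate numbers did not pair the arrays: of 17 same-numbered pairs 3 correlated above 0.1 (r from -0.259 to 0.329). Leaving out each array in turn gave 3 to 115 called probe sets, 3 to 104 common to both days and 39 to 179 without overlap, the high ends without naive replicate 1, and 0 to 1 that differed between days. It gave 28 (without naive replicate 4) to 475 (without naive replicate 2) for spread, 58 to 193 (without naive replicates 4 and 2) for spread on log2 deviations, -0.19 to -0.08 for the 3′ minus 5′ difference and -0.32 to 0.28 for muscle. Spread gave 236 calls, 128 on log2 deviations, 25 with the rat code as a block on either scale, and 0 from the group median (limma).

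Of 1144 named values 1073 kept direction and side of the threshold, 37 lost and 24 gained the call. Near-zero differences changed sign: Bbs4 (1383007_at) was 0 without naive replicate 1 and -0.01 without naive replicate 3 or the muscle-highest arrays, Ngfr was -0.01 and 0 without naive replicate 1 and the muscle-highest arrays, and Ntrk2 was 0.01 in 4 settings and 0.05 without naive replicate 4. Over arrays left out in turn they ranged from -0.01 to 0.14, -0.01 to 0.08 and -0.07 to 0.05. The cause was not tested. With 5 naive arrays, 1 array can move any count.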

Other observations

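Some chaperone and RNA-binding protein genes outside the lists lay close behind the named ones. Hspa1a, an inducible chaperone, differed by -0.40 ± 0.09 with 12 of 14 operated arrays below naive (limma, adjusted p = 0.134), and Dnajb1, its co-chaperone, by -0.28 ± 0.06 at 1388722_at (adjusted p = 0.105) but by 0.03 ± 0.07 at its other probe set. Cirbp, an RNA-binding protein, differed by 0.34 ± 0.09 and 0.46 ± 0.11 at 2 probe sets and by 0.03 ± 0.07 at the third. Another co-chaperone gene, Dnaja1, differed by -0.02 and -0.05. With the 3′ minus 5′ covariate the larger Cirbp differences were 0.19 and 0.26. None passed the test.

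Some genes differed by probe set. Klc1, a kinesin light chain, differed by 0.53 ± 0.13 at 1388125_a_at, by 0.18 ± 0.07 at 1375229_at, by -0.03 ± 0.04 at 1370886_a_at and by -0.29 ± 0.10 at 1399126_at. Drgx, a homeobox factor of sensory neurons, differed by -0.25 ± 0.06 with 11 of 14 operated arrays below naive, and Spp1, or osteopontin, by 0.68 ± 0.16 with 12 of 14 above (adjusted p = 0.136 for each in limma). The genes of this section were picked after their values were seen.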
